A study of Homo sapiens with 3 samples.

Results

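The genes described here are 10 CXC and CC chemokine ligands, namely CXCL1, CXCL2, CXCL3, CXCL5, CXCL6, CXCL10, CXCL16, IL8 (the older symbol of CXCL8), CCL2 and CCL20, taken by symbol from tables that list 16149 genes in all. They were selected on their RPKM in these same libraries, with earlier results known, so their levels and ratios are given as a description and no test was made on them. A gene without a row in a library was counted as 0 there, and 8 of the 10 had a row in at least 1 library. RNA was sequenced from 3 cultured lines of human hepatocellular carcinoma (HCC), with 1 library each. The labels name HCCLM3 as the cell line of all 3, give the parent a low ability to metastasise, subclone 1 a higher one aimed at the lung, and subclone 2 a dual one to lung and celiac lymph node. In the study, the parental cells carried red fluorescent protein and are described as highly metastatic, unlike the low ability in the labels. Each subclone there was grown from a single cell of a lung or lymph node focus in nude mice. Which of the study's monoclones were sequenced is not given in the sources used here, so each subclone stands for 1 clone. All lines were cultured in DMEM medium, and no treatment is named.

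Chemokines are small secreted proteins that draw cells along a gradient by binding receptors that pass the cell membrane several times. CXC ligands with a Glu-Leu-Arg motif before the first cysteines (CXCL1, CXCL2, CXCL3, CXCL5, CXCL6 and IL8) bind CXCR2, some of them CXCR1 too, and are known for recruiting neutrophils and for promoting the growth of blood vessels. CXCL16 is made as a membrane protein and binds CXCR6, CCL20 binds CCR6, CXCL10 binds CXCR3 on activated T cells, and CCL2 binds CCR2 on monocytes. In epithelial cells many of these genes are classical targets of NF-kB, a transcription factor that inflammatory signals release into the nucleus.

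The promoters are shown first because most of the ligands share one run of letters close to the start of transcription. In the GENCODE annotation of GRCh38, 6 members lie in one cluster on the long arm of chromosome 4, from IL8 (73740506 to 73743716, plus strand) to CXCL2 (74097035 to 74099293, minus strand). The files themselves hold no coordinates, and the genome named in the submitters' processing notes is hg19. RefSeq promoter sequences (GRCh38.p14, 250 bases before to 50 after the start) matched 8 of the 10 members by symbol. Each was searched on both strands for GGNNTTTCC, a short form of the kappaB site that NF-kB binds, written with these promoters in view. The letters stand in capitals below, in windows of 40 bases read 5′ to 3′ on the strand of the gene.
CXCL1: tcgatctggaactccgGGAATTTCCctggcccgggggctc
CXCL2: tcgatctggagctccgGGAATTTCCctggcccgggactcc
CXCL3: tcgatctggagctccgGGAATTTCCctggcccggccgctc
CXCL5: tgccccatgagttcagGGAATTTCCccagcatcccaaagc
CXCL6: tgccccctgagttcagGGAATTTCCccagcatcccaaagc
IL8: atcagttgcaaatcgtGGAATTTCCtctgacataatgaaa
CCL20: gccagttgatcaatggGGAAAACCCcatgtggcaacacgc
CXCL10: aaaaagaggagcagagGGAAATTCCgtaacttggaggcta
The windows lie at chr4:73869299-73869338 (plus strand) for CXCL1, chr4:74099249-74099288 (minus) for CXCL2, chr4:74038744-74038783 (minus) for CXCL3, chr4:73998744-73998783 (minus) for CXCL5, chr4:73836573-73836612 (plus) for CXCL6, chr4:73740462-73740501 (plus) for IL8, chr2:227813747-227813786 (plus) for CCL20 and chr4:76023650-76023689 (minus) for CXCL10.

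All 8 promoters held GGNNTTTCC on one strand or the other, against 6.26% of 27305 promoters of this length. In CXCL1, CXCL2, CXCL3, CXCL5 and CXCL6 the match was part of the longer GGGAATTTCC, which 0.161% of all promoters hold. This longer run was copied from the CXCL1 promoter, so CXCL1 had to match. The windows of CXCL1, CXCL2 and CXCL3 are nearly alike, as are those of CXCL5 and CXCL6, so nothing is read from the share. IL8 had the same 9 letters (GGAATTTCC) after a T. These letters began 77 to 91 bases before the start in the 6 clustered genes. CXCL1, CXCL2 and CXCL3 had a further match (GGGCTTTCC) 53 bases before the start. The AP-1 motif TGANTCA was found in IL8 alone of the 8, 137 bases before the start, and in 7.76% of all promoters. TATAAA stood 31 bases before the start of IL8 and 29 before that of CCL20, and in 12% of all promoters. The C/EBP motif TTGCNNAA was found in CXCL2 alone of the 8, 188 bases before the start, against 10.6% of all promoters. Near matches were not counted, such as TTGCAAAT before the kappaB letters of IL8, which departs from the motif in its last letter. A promoter without a match may thus still hold a site. A match of letters is a description of the sequence and not evidence of binding. Whole promoters follow for the most abundant ligand (CXCL5), the ligand with the highest fold among those listed in every library (CXCL1), the ligand with an AP-1 match (IL8) and the CC ligand (CCL20), with GGNNTTTCC in capitals.
CXCL1: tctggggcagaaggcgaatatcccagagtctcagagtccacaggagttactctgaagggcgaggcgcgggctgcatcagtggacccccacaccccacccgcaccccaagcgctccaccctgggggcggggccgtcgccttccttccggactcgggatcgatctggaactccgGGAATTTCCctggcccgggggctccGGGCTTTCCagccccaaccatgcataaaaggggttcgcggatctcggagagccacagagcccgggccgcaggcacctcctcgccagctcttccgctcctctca
CXCL5: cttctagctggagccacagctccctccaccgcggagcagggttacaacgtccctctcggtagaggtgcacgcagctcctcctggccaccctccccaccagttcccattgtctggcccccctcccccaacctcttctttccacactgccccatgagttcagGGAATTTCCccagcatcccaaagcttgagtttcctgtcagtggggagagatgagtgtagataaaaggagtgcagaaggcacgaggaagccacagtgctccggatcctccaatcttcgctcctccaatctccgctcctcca
IL8: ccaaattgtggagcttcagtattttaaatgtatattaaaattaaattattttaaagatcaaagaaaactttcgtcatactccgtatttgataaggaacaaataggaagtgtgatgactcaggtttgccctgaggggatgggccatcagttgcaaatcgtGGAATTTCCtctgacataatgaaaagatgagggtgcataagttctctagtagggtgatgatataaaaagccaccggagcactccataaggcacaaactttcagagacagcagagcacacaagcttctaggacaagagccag
CCL20: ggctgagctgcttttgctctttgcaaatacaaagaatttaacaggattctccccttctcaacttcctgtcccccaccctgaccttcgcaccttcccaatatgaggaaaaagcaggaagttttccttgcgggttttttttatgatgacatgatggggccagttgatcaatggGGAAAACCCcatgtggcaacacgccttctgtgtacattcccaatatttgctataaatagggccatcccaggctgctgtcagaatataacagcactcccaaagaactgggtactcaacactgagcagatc
They lie at chr4:73869143-73869442 (plus), chr4:73998628-73998927 (minus), chr4:73740319-73740618 (plus) and chr2:227813592-227813891 (plus) of GRCh38.p14.

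**Figure D1:**
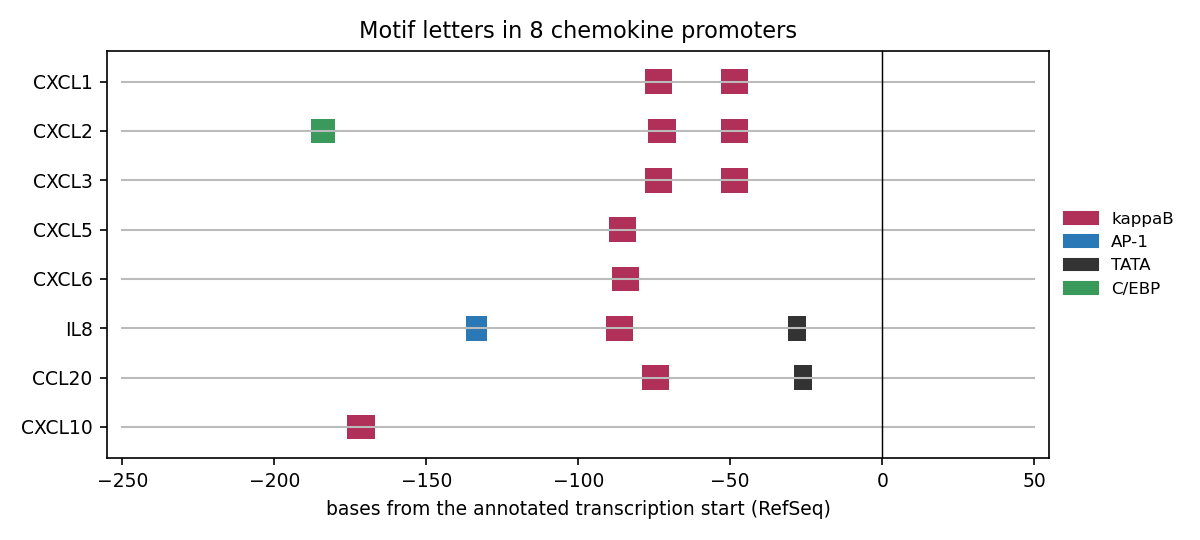
Position of motif letters in the RefSeq promoters of 8 chemokine genes; the horizontal axis is the distance in bases from the annotated start, each line is 1 promoter and each coloured box 1 match on either strand. The kappaB boxes of the 6 clustered genes begin between 77 and 91 bases before the start, with a further box at 53 bases in CXCL1, CXCL2 and CXCL3.

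The level of an mRNA is given as RPKM, its reads scaled to the length of the gene and to the reads of the library. Whole reads could be recovered from the RPKM, with totals of 4488825 reads in the parent, against 4609696 in subclone 1 and 4725150 in subclone 2. Intervals of 95% are exact Poisson intervals for levels and exact binomial (Clopper-Pearson) intervals for folds. They cover counting error only, since no line had a replicate library and reads of one molecule are not told apart, so the folds compare libraries and not conditions. In bulk RNA, a larger share of cells with an mRNA and more of it per cell cannot be told apart. The 8 hepatocyte markers did not run together. ALB had 2.46 RPKM in the parent, against 49.5 in subclone 1 and 68.8 in subclone 2, and APOB had 0.3, 1.23 and 4.17 RPKM in the same order. TF (5.71, 30.3 and 5.88 RPKM) and FGB (1.66, 14.5 and 5.6) were highest in subclone 1, AFP had 2.41, 4.16 and 4.27 RPKM, and SERPINA1, APOA1 and TTR did not pass 0.726 RPKM in any library.

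CXCL5 was the most abundant member in every library. It had 38.4 RPKM in the parent (95% interval 34.9 to 42.3, 427 reads), 105 in subclone 1 (99 to 111, 1196 reads) and 217 in subclone 2 (209 to 226, 2541 reads). The 3 intervals did not overlap, and subclone 2 stood at percentile 97.7 of the levels of the 11370 genes whose mean RPKM reached 1. Subclone 1 was 2.73-fold above the parent (2.44 to 3.05) and subclone 2 was 5.65-fold above it (5.1 to 6.28). Subclone 2 exceeded subclone 1 by 2.07-fold (1.93 to 2.22). CXCL5, also called ENA-78, made up 70.9% of the summed RPKM of the 6 Glu-Leu-Arg ligands in the parent, against 67.3% in subclone 1 and 80.6% in subclone 2. That sum was 54.2 RPKM in the parent, against 156 in subclone 1 and 270 in subclone 2.

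CXCL1, the GRO-alpha chemokine, had the highest fold among the members that were listed in every library. Its level was 1.79 RPKM in the parent (0.819 to 3.4, 9 reads), 21.9 in subclone 1 (18.1 to 26.3, 113 reads) and 21.6 in subclone 2 (17.8 to 25.9, 114 reads). Against the parent the fold was 12.2 in subclone 1 (6.22 to 27.4) and 12 in subclone 2 (6.12 to 27), and the subclones had almost the same level, with a fold of 0.984 between them (0.752 to 1.29). In the parent CXCL1 was at percentile 9.36 of the levels, and in subclone 1 at percentile 70.

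IL8, the best known neutrophil attractant of the family, had a level in the parent that overlapped with those of CXCL16 and CCL20. It was 10.1 RPKM in the parent (7.19 to 13.8), against 20.5 in subclone 1 (16.2 to 25.4) and 17.7 in subclone 2 (13.9 to 22.3). Both subclones were higher than the parent, by 2.02-fold (1.36 to 3.04) and 1.75-fold (1.17 to 2.66), and the fold of 0.867 between them had an interval from 0.622 to 1.21. These intervals rest on 39, 81 and 72 reads, which fitted a length of 859 bases. A count of 78, 162 and 144 reads with a length of 1718 bases fitted as well. It would narrow the intervals over the parent to 1.53 to 2.68 and 1.32 to 2.34. The longest GENCODE transcript of IL8 holds 1670 stretches of 36 bases and so is close to the longer length. The intervals given first are thus the wider set.

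CXCL2 and CXCL3, the GRO-beta and GRO-gamma chemokines, were much less abundant. CXCL2 had 2.53 RPKM in the parent (14 reads), 5.27 in subclone 1 (30 reads) and 5.32 in subclone 2 (31 reads), with folds over the parent of 2.09 (1.07 to 4.26) and 2.1 (1.09 to 4.28). CXCL3 had 1.34 RPKM in the parent (7 reads), 2.42 in subclone 1 (13 reads) and 6.17 in subclone 2 (34 reads). CXCL2 was thus at one level in the subclones, while CXCL3 was highest in subclone 2. For CXCL3 the fold of subclone 2 was 4.61 over the parent (2.01 to 12.3) and 2.55 over subclone 1 (1.31 to 5.27). Subclone 1 was 1.81-fold above the parent, but with bounds of 0.671 and 5.35 a difference was not detectable at this depth. The 3 GRO genes are close copies: of all stretches of 36 bases in the longest GENCODE transcript of each, 12.2% in CXCL1, 16.5% in CXCL2 and 8.17% in CXCL3 also occurred in another of the 12 chemokine transcripts compared. How reads that fit several genes were counted is not given in the sources used here, so a part of the reads of these genes may belong to another of them.

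CXCL6, the closest relative of CXCL5, was the least abundant listed member and was not listed in the parent. Subclone 1 had 0.776 RPKM (0.285 to 1.69, 6 reads) and subclone 2 had 1.64 RPKM (0.874 to 2.81, 13 reads). Taking 3 reads, or 0.399 RPKM, as the limit that a count of 0 allows in the parent, subclone 1 was at least 1.95-fold higher and subclone 2 at least 4.12-fold higher by their read counts. With the counting error of the 6 and 13 reads included, the lower bounds of the folds were 1.15 and 2.9. The fold of 2.11 between the subclones had an interval from 0.75 to 6.78. CXCL5 and CXCL6 shared 1.08% and 1.6% of their stretches of 36 bases.

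CXCL16, the membrane-bound ligand of CXCR6 and a scavenger receptor for oxidised lipoproteins, had 9.31 RPKM in the parent (7.56 to 11.4, 98 reads), 24.8 in subclone 1 (21.9 to 28, 268 reads) and 40.9 in subclone 2 (37.2 to 44.8, 453 reads). Here too the intervals were apart in all 3 libraries. The folds over the parent were 2.66 (2.11 to 3.39) and 4.39 (3.52 to 5.52), and subclone 2 exceeded subclone 1 by 1.65-fold (1.41 to 1.93). CXCL16 is the member after CXCL5 with the most reads in each library. ADAM10 and ADAM17, the proteases known to release CXCL16 from the membrane, were lower or higher by less than 2-fold. ADAM10 had 39.3, 42.1 and 39.2 RPKM in the parent, subclone 1 and subclone 2, and the intervals of its folds over the parent included 1. ADAM17 had 7.3, 11.9 and 9.48 RPKM. Its folds over the parent were 1.63 in subclone 1 (1.29 to 2.07) and 1.3 in subclone 2 (1.02 to 1.66).

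CCL20, which attracts dendritic cells and some T cells through CCR6, had 8.12 RPKM in the parent (5.51 to 11.5, 31 reads), 12.2 in subclone 1 (9.02 to 16.2, 48 reads) and 26.1 in subclone 2 (21.4 to 31.6, 105 reads). Subclone 2 stood clear of the other 2 libraries. It was 3.22-fold above the parent (2.14 to 4.97) and 2.13-fold above subclone 1 (1.5 to 3.07). For subclone 1 over the parent the fold was 1.51 with bounds of 0.94 and 2.45, and a difference was not detectable at this depth.

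CXCL10 and CCL2 had no row in any of the 3 tables and are listed at 0. This was not read as an absence of their mRNA, because at least 1 gene that nearly every cell type transcribes likewise had no row in the tables used here.

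**Figure D2:**
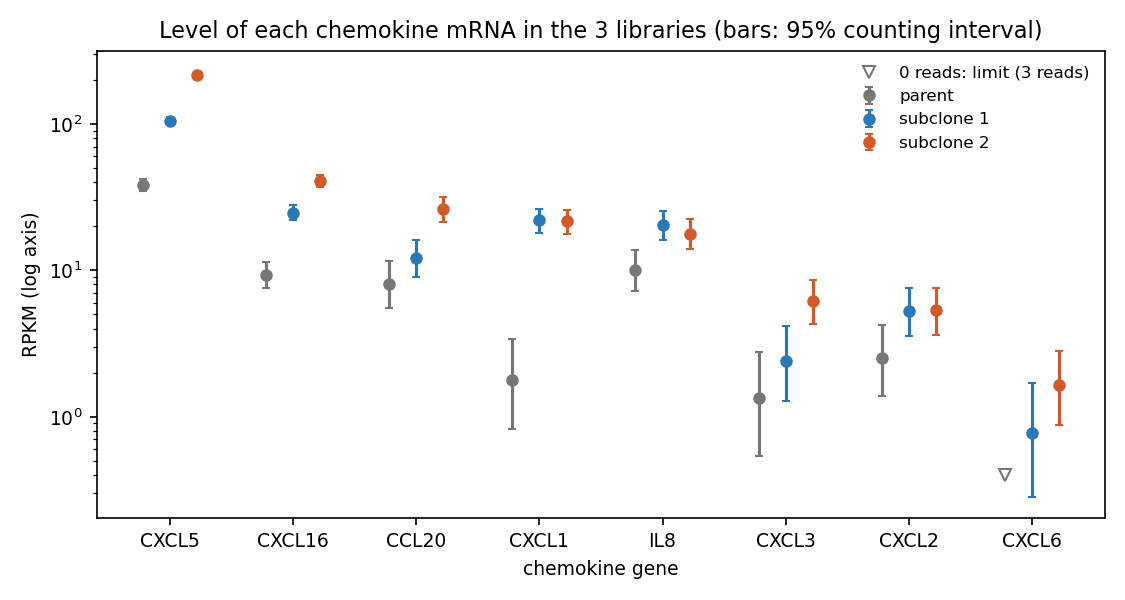
RPKM of the 8 listed chemokine genes on a log axis in the parent (grey), subclone 1 (blue) and subclone 2 (orange), 1 library each; bars are 95% counting intervals, and the open triangle is the limit of 3 reads for CXCL6 in the parent. CXCL5 lies highest in every library, from 38.4 RPKM in the parent to 217 in subclone 2, and CXCL6 lowest.

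The order of the levels differed between the libraries. In the parent, CXCL5 was followed by IL8, CXCL16 and CCL20, whose intervals overlapped, then by CXCL2, CXCL1 and CXCL3, whose intervals overlapped as well. Behind CXCL5 in subclone 1, CXCL16, CXCL1 and IL8 overlapped, then came CCL20, then CXCL2 and CXCL3 with overlapping intervals. The upper bound of CCL20, 16.2 RPKM, just reached the lower bound of IL8 when the length of IL8 is taken as 859 bases. With the longer length the interval of IL8 would be narrower. Subclone 2 had CXCL16 alone in the place after CXCL5, then CCL20, CXCL1 and IL8, each overlapping with the next, then CXCL3 and CXCL2, which overlapped.

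The subclones differed in part of the members. CXCL3, CXCL5, CXCL16 and CCL20 were higher in subclone 2 than in subclone 1, each with an interval of the fold above 1. For CXCL1, CXCL2, IL8 and CXCL6 this interval included 1. On the scale of log2 (RPKM + 0.1), 6 of the 10 members in subclone 1 exceeded the parent by 2-fold or more, against 4.9% of the 11370 genes. Subclone 2 exceeded the parent this far in 7 members, against 5.33% of these genes, and subclone 1 in 3 members, against 1.42%. No member was 2-fold lower in any of these comparisons, against 1.82%, 2.16% and 1.39% of the genes. One of the counted members, CXCL6, has a mean RPKM under 1, is not among the 11370 genes, and in subclone 1 passed 2-fold only with the pseudocount, its bound being 1.95. Of the 7 members that are among the 11370 genes, 5, 6 and 3 were higher by 2-fold or more in these comparisons. Of the 7 members with a mean RPKM of 1 or more, the counting interval of the fold lay above 1 in 5 for subclone 1 over the parent (19.6% of 11257 genes with resolved reads), in 7 for subclone 2 over the parent (22.4%) and in 4 for subclone 2 over subclone 1 (11.4%). It lay below 1 in none of the 7, against 18.8%, 17.7% and 8.34% of the genes. The members were picked with these ratios known, so nothing is read from the shares. IL8 in subclone 1 and CXCL2 in both subclones were just inside the 2-fold limit with log2 ratios of 1.01, 1.03 and 1.04, and CXCL3 in subclone 1 and IL8 in subclone 2 just outside it with 0.81 and 0.80. The median log2 ratio over the 10 members was 1.02 in subclone 1 and 1.90 in subclone 2, both over the parent. It was 0.37 for subclone 2 over subclone 1, and the medians of the 11370 genes were 0.00, 0.04 and 0.03. With CXCL6 at its lower bound the first 2 medians over the 10 members were 0.99 and 1.86. CXCL10 and CCL2, which had no row, entered these medians with a ratio of 0. Over the 8 members with a row the medians were 1.22, 2.12 and 0.85. The comparisons of the subclones with the parent share the parent library.

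**Figure D3:**
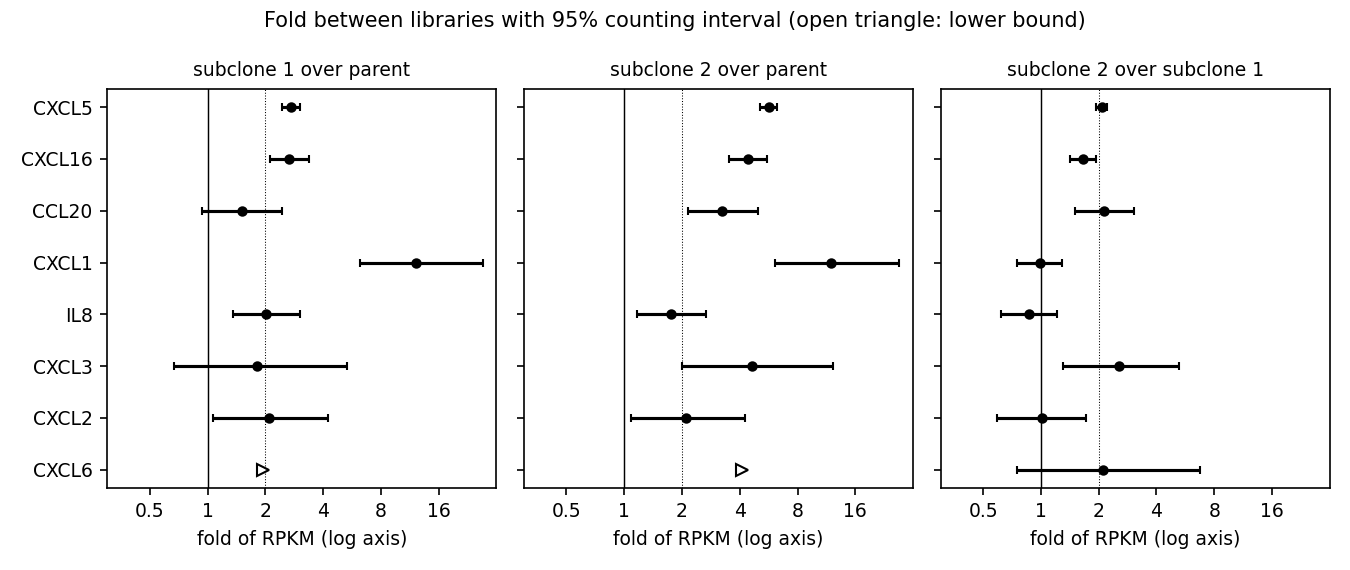
Fold of RPKM between 2 libraries for each listed member, on a log axis, in the 3 comparisons; points are folds, bars 95% counting intervals, open triangles lower bounds for CXCL6, and the vertical lines mark 1-fold and 2-fold. CXCL1 stands at about 12-fold in both subclones. In the comparison of the subclones, CXCL5, CXCL16, CCL20 and CXCL3 lie right of 1 with their whole intervals. The point of CXCL6 also lies right of 1 there, but its interval includes 1.

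**Figure D4:**
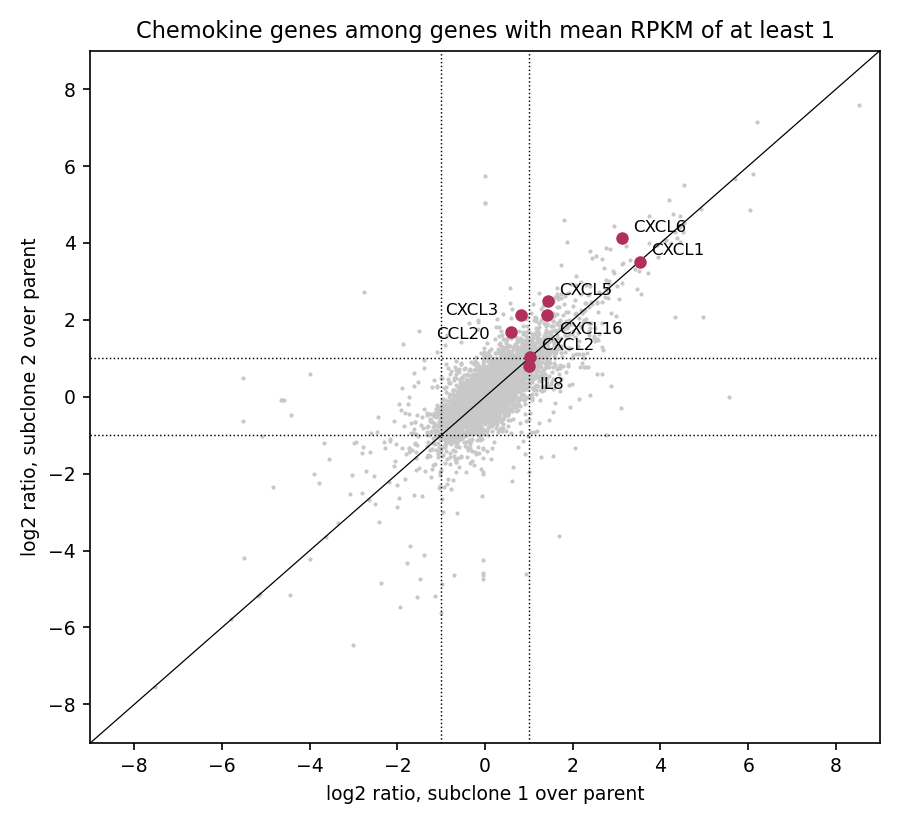
Log2 ratio over the parent in subclone 2 against that in subclone 1 for the 11370 genes whose mean RPKM reached 1 (grey) and the 8 listed chemokine genes (red, with CXCL6 of lower mean RPKM added); dotted lines mark 2-fold and the diagonal equal ratios. All 8 lie above 0 on both axes. CXCL5, CXCL16, CCL20, CXCL3 and CXCL6 lie above the diagonal, CXCL1 and CXCL2 close to it, and IL8 below it. For CXCL6 and IL8 the counting interval of the fold between the subclones included 1. Both axes share the parent library.

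The position on chromosome 4 allowed the neighbours of the cluster to be compared, a choice made after values were seen. In the RefSeq order of protein-coding genes, ALB, AFP, AFM and RASSF6 precede IL8, and MTHFD2L, EPGN, EREG, AREG and BTC follow CXCL2. All 6 members of the cluster had log2 ratios above 0 in both subclones, from 0.80 for IL8 in subclone 2 to 4.12 for CXCL6 in the same library, a value that depends on the pseudocount. RASSF6, the gene next to IL8, had 2.78 RPKM in the parent, against 3.31 in subclone 1 and 4.6 in subclone 2. MTHFD2L, the gene next to CXCL2, had 0.939, 0.823 and 0.803 RPKM. EREG, a ligand of the EGF receptor, had 36.6 RPKM in the parent, against 22.3 in subclone 1 and 23.5 in subclone 2, with log2 ratios of -0.71 and -0.64. AREG, a ligand of the same receptor, had ratios of -0.02 and 0.24, and BTC had -0.53 and -0.38. On the other side all the named genes had log2 ratios above 0 as well. They were 4.28 and 4.75 for ALB, the albumin gene, 0.76 and 0.80 for AFP, and 0.24 and 0.71 for RASSF6. AFM, at 1.06 and 1.64, did not pass 0.212 RPKM in any library. Inside the cluster, PF4 and PF4V1, the platelet factor genes, did not pass 0.911 RPKM in any library, and PPBP was listed at 0.

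Among 38 other chemokine ligands, 12 had a row in at least 1 library and 5 reached a mean RPKM of 1. CX3CL1 and CXCL17 reached this mean only through the subclones and CCL24 only through the parent, so no count of higher or lower genes is given for them. CCL26, known as eotaxin-3 and an attractant of eosinophils through CCR3, was the most abundant of them, with 60.6 RPKM in the parent (51.4 to 71.1), against 157 in subclone 1 (143 to 174) and 165 in subclone 2 (150 to 182). Its folds over the parent were 2.6 (2.15 to 3.15) and 2.73 (2.26 to 3.3), and the subclones had a fold of 1.05 between them (0.915 to 1.2). In the parent and in subclone 1 CCL26 was above CXCL5. CX3CL1, the membrane-bound fractalkine, had 2 reads in the parent, against 18 in subclone 1 and 43 in subclone 2, with a fold of 2.33 between the subclones (1.32 to 4.29). Reads of CXCL17, a mucosal chemokine, numbered 1, 12 and 11 in the same order. CCL24, known as eotaxin-2, had 5 reads in the parent and 1 in each subclone, and the intervals of its folds included 1. Beside CCL26, whose levels did not differ detectably between the subclones, CX3CL1 thus had the order of CXCL5 and CXCL16.

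The receptors of the described ligands had few reads or were listed at 0. Among 23 chemokine receptors, 11 had a row and 3 a mean RPKM of at least 1, which were CXCR7, CCRL2 and CCRL1, all atypical receptors or relatives of them. CXCR2, the receptor of the Glu-Leu-Arg ligands, had 4 reads in the parent, against 1 in subclone 1 and 0 in subclone 2. CXCR1 was listed at 0, which was not read as an absence. CXCR3, which binds CXCL10, had 0 reads in the parent and in subclone 1, against 3 in subclone 2. CXCR6, which binds CXCL16, had 1 read in the parent, against 0 in subclone 1 and 1 in subclone 2. CCR6, which binds CCL20, had 4 reads in the parent, against 2 in subclone 1 and 15 in subclone 2. The fold of CCR6 in subclone 2 was 3.56 over the parent (1.13 to 14.7) and 7.32 over subclone 1 (1.7 to 65.9). CCRL1 reached the mean of 1 RPKM only through subclone 2, so no count of receptors above the parent is given. The folds of CCRL2 over the parent were 1.26 in subclone 1 (0.639 to 2.53) and 1.79 in subclone 2 (0.964 to 3.43). CXCR7, an atypical receptor that takes up CXCL12, had 28.5 RPKM in the parent (25.2 to 32.1), against 27.2 in subclone 1 (24 to 30.7) and 4.71 in subclone 2 (3.46 to 6.26). Its fold in subclone 2 was 0.165 over the parent (0.119 to 0.226), at percentile 0.317 of the ratios. CCR1, named after its values were seen, had 21 reads in the parent, against 11 in subclone 1 and 0 in subclone 2. Its ligands include CCL5, which had 4, 5 and 1 reads.

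The NF-kB list holds 12 subunits, inhibitors and target genes, all with a mean RPKM of at least 1. By the 2-fold limit, subclone 1 had 1 of the 12 above the parent and 1 below it, and subclone 2 had 2 above it and 0 below. The shares over all 11370 genes were 4.9% above and 1.82% below in subclone 1, and 5.33% and 2.16% in subclone 2. By this limit 1 of 12 is near the background. The counting interval of the fold over the parent lay above 1 in 7 of the 12 for subclone 1 and in 8 for subclone 2. It lay below 1 in 0. These counts rest on the fitted lengths, and longer ones with more reads would narrow the intervals and could raise the counts. Of 11257 genes with resolved reads, the interval lay above 1 in 19.6% and 22.4%, and below 1 in 18.8% and 17.7%. The list was chosen with earlier results known, so nothing is read from these shares. The median log2 ratios of the list were 0.62 and 0.74. BIRC3, an inhibitor of cell death and a target of NF-kB, had 8.97 RPKM in the parent (7.8 to 10.3), against 30.8 in subclone 1 (28.7 to 33.1) and 39.2 in subclone 2 (36.7 to 41.7), and its intervals were apart in all 3 libraries. NFKBIZ, which encodes the nuclear inhibitor-like protein IkB-zeta, had 7.36 RPKM in the parent (6.15 to 8.74), against 12.3 in subclone 1 (10.7 to 14) and 18 in subclone 2 (16.1 to 20.1). At a fitted length of 1296 bases REL, a subunit, had 13, 5 and 7 reads in the parent, subclone 1 and subclone 2. The intervals of its folds over the parent included 1 at that length. A multiple of the length would fit as well, with more reads and narrower intervals. Whether these would still include 1 was not tested. The feedback inhibitor NFKBIA and the subunits RELA and NFKB1 are named for their role, after their values were seen. For NFKBIA the fold over the parent was 1.68 in subclone 1 (1.44 to 1.98) and 1.83 in subclone 2 (1.57 to 2.14). It was 1.08 (0.949 to 1.22) and 1.18 (1.04 to 1.34) for RELA, and 1.09 (0.915 to 1.29) and 1.2 (1.02 to 1.42) for NFKB1.

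Among 17 cytokines that induce such genes, and their receptors, 14 had a row and 11 a mean RPKM of at least 1. In subclones 1 and 2, 0 of the 11 were below the parent by 2-fold or more, against 1.82% and 2.16% of all genes. IL1A passed the filter only through the subclones, so no count of genes above the parent is given. This alarm cytokine, released by damaged cells, had 0.908 RPKM in the parent (12 reads), 2.95 in subclone 1 (40 reads) and 3.24 in subclone 2 (45 reads). IL1B, which signals through the same receptor, had 5.06 RPKM in the parent (3.5 to 7.07, 34 reads), 9.99 in subclone 1 (7.77 to 12.6, 69 reads) and 16.7 in subclone 2 (13.8 to 20, 118 reads). Both subclones were above the parent in IL1B, and subclone 2 was 1.67-fold above subclone 1 (1.23 to 2.28). TNF had 0 reads in the parent, against 1 in subclone 1 and 0 in subclone 2, while IL6 and IL17A were listed at 0. Of 8 AP-1 subunits, 7 had a mean RPKM of at least 1, and the 1 that was at least 2-fold higher was ATF3 in subclone 2, with 1.75, 2.31 and 5.58 RPKM in the 3 libraries and no interval because its reads were not resolved. Of the 12 interferon partners of CXCL10, 8 had a row and 7 a mean RPKM of at least 1, and 1 of these, IFIT1, was at least 2-fold higher in each subclone, with 10, 25 and 32 reads. These counts of 1 of 7 stand against 4.9% of all genes in subclone 1 and 5.33% in subclone 2. By counting interval over the parent, 4 AP-1 subunits lay above 1 in subclone 1 and 3 in subclone 2, against 19.6% and 22.4% of genes. In each subclone 1 lay below 1, against 18.8% and 17.7%. That was FOSL1, named after its values were seen, with 64.1, 39.8 and 40.7 RPKM in the parent, subclone 1 and subclone 2. CXCL9 and CXCL11, the other ligands of CXCR3, were listed at 0.

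**Figure D5:**
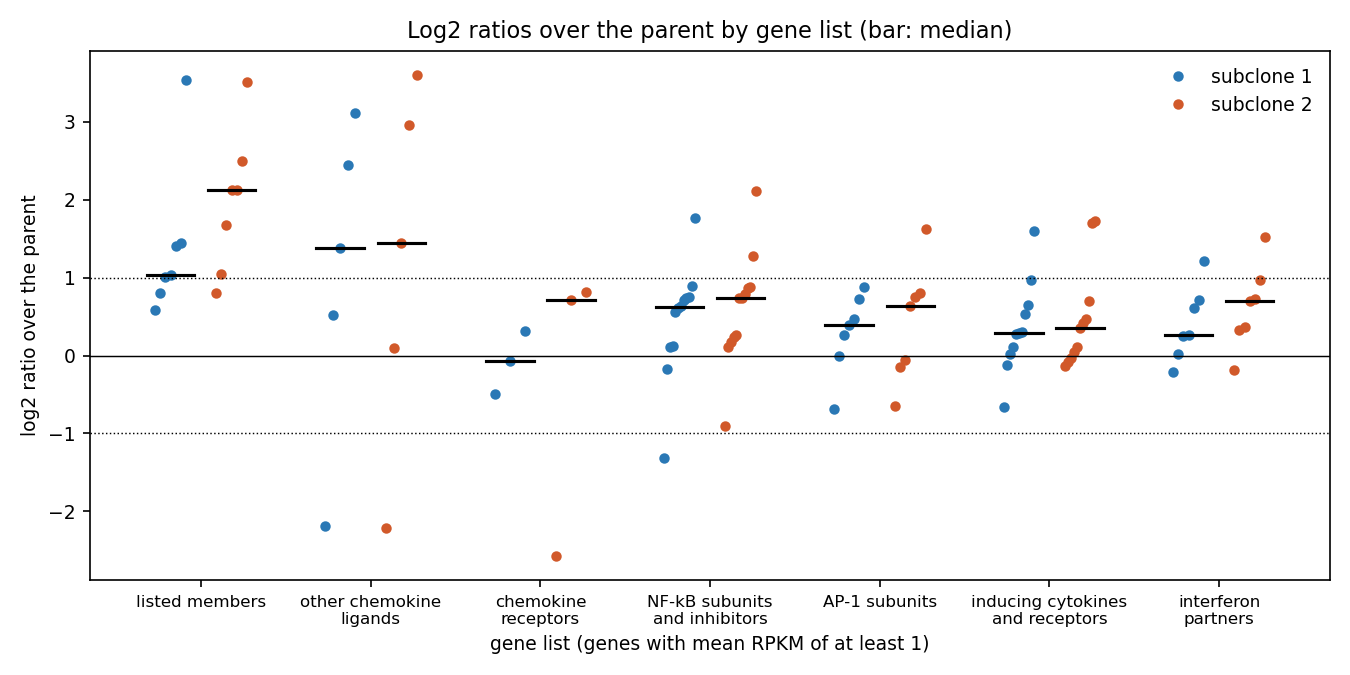
Log2 ratio over the parent of each gene with a mean RPKM of at least 1 in 7 lists, in subclone 1 (blue) and subclone 2 (orange); points are genes, black bars medians and dotted lines 2-fold. The 7 listed members have medians of 1.03 and 2.12, and the 12 genes of the NF-kB list medians of 0.62 and 0.74.

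Markers of other cell types that make or meet chemokines were looked at in the same libraries. Of 7 neutrophil and T cell markers, 6 were listed at 0, and the other, CSF3R, did not pass 0.248 RPKM. Of 7 macrophage markers, 6 had a row, and their summed RPKM was 76.6 in the parent, against 116 in subclone 1 and 101 in subclone 2. Nearly all of this was CD68, a lysosomal protein that other cells make as well, with 75.3, 112 and 99.6 RPKM. PTPRC, the common leukocyte antigen, had 1 read in the parent and 0 in the subclones. The 4 endothelial markers summed to 4.74, 11.8 and 7.56 RPKM, most of it PECAM1 (3.33, 9.81 and 4.46 RPKM). KDR had 1.36, 1.93 and 3.08 RPKM, while CDH5 did not pass 0.0525 RPKM. The 6 fibroblast markers, 5 of them with a row, summed to 15.7, 31.1 and 24.3 RPKM, most of it LUM, and did not run together. LUM (10.1, 24 and 21 RPKM) and DCN (0.773, 4.42 and 2.75) were higher in the subclones, whereas COL3A1 had 4.42, 2.21 and 0.463 RPKM and COL1A1 had 0.338, 0.403 and 0.0357 RPKM. The part of endothelial or fibroblast cells in the chemokine levels was not tested.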

How the data were processed

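RNA libraries made with an Illumina TruSeq kit from 3 cell lines were compared, 1 library per line, grouped by the titles in the labels. The authors deposited RPKM values per gene with Entrez number and symbol, and listed only genes above 0. The submitters' processing notes name hg19. The aligner, counting tool, annotation and the handling of strand and shared reads are not given in the sources used here, so close copies may share reads.

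Whole reads were recovered from the RPKM: ratios of totals came from 543 and 519 low genes with equal reads, and the totals from the common step of 1646 low genes, 83.2% of them whole within 0.01. The smallest length giving whole reads in all libraries was taken if at least 0.5 times the median GENCODE transcript of the gene, otherwise the fitting length nearest a transcript. Among 15538 genes, 80.5% had a length within 10% of a transcript. A multiple of a fitting length also fits, with more reads, so some read numbers may be too low and their intervals too wide. Resolved genes held 95.8% to 95.9% of each total. The rule for lengths was settled after values were seen.

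Ratios were log2 of (RPKM + 0.1), and background genes had a mean RPKM of at least 1. Designs allowed no test. The members and lists were chosen with earlier results of these data known. All members were named. Of the pathway lists, genes 2-fold apart from the parent with a mean RPKM of at least 1 were named, and exceptions are marked. Marker lists were outside this rule and are given by sums and by markers picked after their values were seen. Names matched the RefSeq table for 99.4% of gene numbers. Python 3.11.15, numpy 2.4.6, pandas 2.3.3, scipy 1.17.1 and matplotlib 3.10.9 were used. Alternatives were other pseudocounts, scalings, filters, a 1.5-fold limit and the sum of CXCL1, CXCL2 and CXCL3.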

Additional observations from a re-analysis of the deposited data

How the results depend on the processing

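All 112 log2 ratios of the 8 listed members over the parent stayed above 0 under the 7 alternatives of pseudocount and scaling. These signs could hardly change, because a pseudocount cannot turn the sign of a ratio. The scalings put the median of all genes over the parent between -0.13 and 0.10, and the smallest member ratio was 0.59 (CCL20 in subclone 1). Of 168 values in all 3 comparisons, 165 stayed inside the counting interval of the reported one. The exceptions were CXCL6 in subclone 2 over the parent (1.40 with a pseudocount of 1) and CXCL5 in subclone 2 over subclone 1 (1.18 divided by ACTB, 1.17 divided by GAPDH). Of the members, 3 in place of 6 passed 2-fold for subclone 1 over the parent with a pseudocount of 1, and 4 with division by ACTB or by GAPDH. For subclone 2 over the parent 4 passed among members with a mean RPKM of at least 5. Only CXCL1, CXCL5, CXCL16, IL8 and CCL20 reach that mean. For subclone 2 over subclone 1 the 1.5-fold limit gave 5. The median log2 ratio over the members ran from 0.83 to 1.40, from 1.49 to 2.12 and from 0.29 to 0.72 over the alternatives in the same 3 comparisons.

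Over all genes, the counts higher and lower by 2-fold were 557 and 207 for subclone 1 over the parent. They changed to 347 and 117 with a pseudocount of 1, to 1523 and 884 unfiltered, to 233 and 71 among genes whose mean RPKM reached 5, and to 1317 and 848 by a 1.5-fold limit. For subclone 2 over the parent the same alternatives gave 380 and 150, then 1553 and 941, then 253 and 93, then 1444 and 830. For subclone 2 over subclone 1 they gave 80 and 77, then 842 and 902, then 43 and 46, then 540 and 467. Division by ACTB moved the median of all genes from 0.00 to -0.13 for subclone 1 over the parent, with 449 higher and 328 lower. For subclone 2 over subclone 1, where 161 were higher and 158 lower, the median went from 0.03 to 0.16 with ACTB (219 and 123) and to 0.15 with GAPDH (211 and 126). Depth limits the members of few reads, CXCL1, CXCL2, CXCL3 and CXCL6 in the parent. No paired analysis was possible because each line has 1 library, and no library could be left out.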

Other observations

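The genes most like IL8 in pattern were sought among 8206 genes whose mean RPKM reached 5, by the distance in the pair of log2 ratios over the parent. The nearest were UNC93B1, RNASET2, ACOT8, SMTN and CARD10, at distances of 0.0243 to 0.058. RNASET2, the most abundant of them, had 27.3, 53.8 and 47.9 RPKM in the parent and subclones 1 and 2. With 3 libraries such a likeness is common, since 103 genes lay within 0.25 of IL8.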
